A study of Mus musculus with 24 samples.

Results

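The cytosolic ribosomal protein genes are those that encode the protein part of the ribosome in the cytoplasm. They were chosen by symbol, as the gene entries named Rpl or Rps with a number and at most one closing letter a, l, x or y, together with Rplp0, Rplp1, Rplp2 and Rpsa, with pseudogenes left out. This gave 83 of 55291 gene entries, of which 46 belong to the large subunit, 30 to the small subunit and 7 have a symbol that ends in l, the mark of a paralog. The embryos came from 8-week-old B6D2F1 mice (the labels give BDF2 as background strain), and zygotes received 20 µM antisense oligonucleotide (ASO, a short strand that pairs with an RNA and leads to its degradation) in the male pronucleus. Control embryos received a scrambled ASO and MERVL-KD embryos a mix of 3 ASOs against MERVL, an endogenous retrovirus of the mouse. Each library held total RNA of 30 pooled zona-free embryos, made with random primers and depletion of ribosomal RNA, and each treatment had 2 replicate libraries for each of the 3 stages, 2-cell, 4-cell and 8-cell. By their labels the 2-cell embryos were at 1.5 days post coitum and both later stages at 2.5 days. The libraries are bulk samples, and levels are relative to the other counts of a library, so amounts per embryo were not measured. A higher level cannot be told apart from a loss of other RNA. A lower level cannot be told apart from fewer cells with the RNA or less of it in each cell.

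Ribosomal proteins bind ribosomal RNA to form the large and the small subunit, and most are needed in equal number because each ribosome carries a single copy. Their messenger RNAs typically start with a C followed by an uninterrupted run of C and T, the TOP motif, through which mTOR and LARP1 control their translation. The mouse oocyte lays down ribosomes and messenger RNA for the early embryo, whose own genome becomes broadly active at the 2-cell stage.

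Counts summed to 33532931 and 41320446 in the control and to 35524346 and 30450413 in the MERVL-KD 2-cell libraries. The 4-cell libraries held 34671067 and 28167085 counts in control and 33024212 and 33089736 in MERVL-KD embryos. The 8-cell libraries held 31557127 and 33309531 counts in control and 34491197 and 41482526 in MERVL-KD embryos. The internal part of MERVL was used to check the labels. It took 6.33% and 6.57% of the counts of the control 2-cell libraries and 0.157% and 0.143% of the MERVL-KD ones. At the 4-cell stage its share was 2.07% and 1.78% with control ASO, next to 0.0544% and 0.0331% in MERVL-KD embryos. At the 8-cell stage it was 1.07% and 1.08% in control and 0.0278% in both MERVL-KD libraries, so every library matched its labelled treatment. Replicates differed by more than counting noise in all 6 groups, where the chi-square divided by its degrees of freedom ran from 9.29 to 15.7. The labels do not say whether replicates came from separate females, so p-values measure the spread between these libraries.

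The start of some members' transcripts is shown, as RefSeq places it in the build GRCm38.p6. A RefSeq promoter entry was found for 61 of the 83 members. The first set holds genes described in detail below with a pyrimidine run that begins within 5 bases of the annotated start, base 16 of each line. In Rps23 and Rps27l the run begins 3 bases and 1 base after that start. Rpl14 (chr9:120571502-120571531, plus strand) encodes a large subunit protein, Rplp2 (chr7:141447636-141447665, plus strand) a protein of the stalk that recruits elongation factors, and Rps23 (chr13:90923107-90923136, plus strand) a protein of the decoding centre. Rpl28 (chr7:4792950-4792979, plus strand) encodes a further large subunit protein, Rps27 (chr3:90213634-90213663, minus strand) a zinc-finger protein of the small subunit and Rps27l (chr9:66946071-66946100, plus strand) its paralog. Capitals mark the run, a C followed by C or T, from its first C within those 5 bases on, and in Rpl14 the run extends further upstream.
Rpl14: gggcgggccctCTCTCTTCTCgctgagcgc
Rplp2: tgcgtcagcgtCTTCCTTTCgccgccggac
Rps23: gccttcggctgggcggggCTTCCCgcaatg
Rpl28: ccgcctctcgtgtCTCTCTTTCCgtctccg
Rps27: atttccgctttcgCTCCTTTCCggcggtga
Rps27l: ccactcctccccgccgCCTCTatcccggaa
The second set holds 4 members with no such run at the annotated start and therefore no capitals. Rplp0 (chr5:115559452-115559481, plus strand) encodes the base of the stalk and Rpsa (chr9:120127751-120127780, plus strand) a protein at the messenger RNA exit that also serves as laminin receptor. Rpl10l (chr12:66284387-66284416, minus strand) and Rpl3l (chr17:24727811-24727840, plus strand) are paralogs best known from testis and from striated muscle.
Rplp0: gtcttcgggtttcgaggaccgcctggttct
Rpsa: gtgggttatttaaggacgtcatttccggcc
Rpl10l: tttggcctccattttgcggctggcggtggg
Rpl3l: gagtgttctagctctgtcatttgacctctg
A run of at least 5 bases that opens with C within 5 bases of the annotated start was present in 31 of 73 member promoters (42.5%) and in 18.3% of all 32851 promoters of 300 bases. The letters CCGGAAG, sought on both strands, were present in 35.6% of the member promoters and in 8.86% of all promoters, and their reverse complement CTTCCGG itself contains a short run of C and T. AGATGGC on either strand was present in 13.7% of member promoters and 6.4% of all, and TATAAA from 40 to 15 bases before the start in 0 of 73 and in 1.99% of all. These matches describe the annotated sequence and were not tested as binding sites.

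The members' share of all counts was small at the 2-cell stage and rose several times over by the 4-cell stage in both treatments. Control libraries held 0.437% and 0.468% at the 2-cell stage, and MERVL-KD libraries 0.516% and 0.500%. By the 4-cell stage the control share was 2.54% and 2.49%, next to 2.67% and 2.69% after MERVL-KD. The 8-cell libraries reached 3.09% and 3.16% with control ASO, next to 3.07% and 3.09% with MERVL ASOs. The treatments did not overlap at the 2-cell and 4-cell stages, where MERVL-KD libraries lay higher by less than the step between stages, and they did overlap at the 8-cell stage. These shares have all counts as their base, repeats included, and a library with fewer MERVL counts leaves a larger share to everything else. With gene counts alone as base, the 2-cell shares were 0.572% and 0.627% in control and 0.619% and 0.595% after MERVL-KD, so the treatments overlap there. On that base MERVL-KD libraries still lay higher at the 4-cell stage (3.33% and 3.44%, control 3.23% and 3.10%) and lay lower at the 8-cell stage (3.88% and 3.97%, control 3.98% in both). The 77 mitochondrial ribosomal protein genes held 0.0815 ± 0.0000137% (SD, n = 2) of the counts in control 2-cell, 0.194 ± 0.00242% in control 4-cell and 0.203 ± 0.00424% in control 8-cell libraries, a smaller step from the 2-cell to the 4-cell stage than that of the cytosolic ones.

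**Figure D1:**
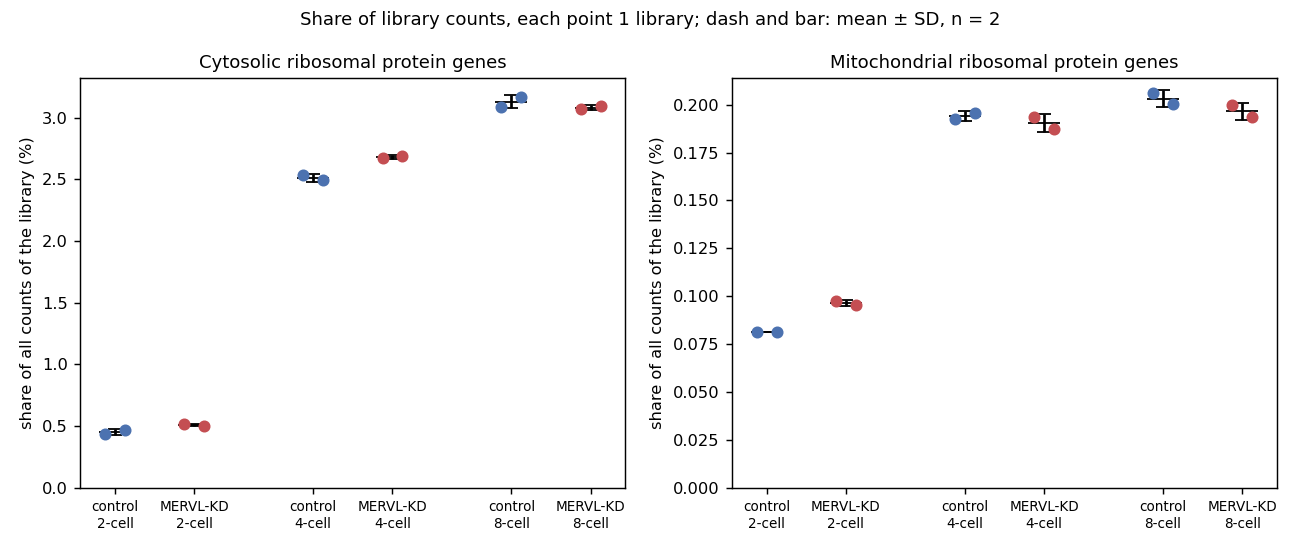
Share of all counts of a library (%, vertical axis) held by the 83 cytosolic (left) and the 77 mitochondrial (right) ribosomal protein genes, by treatment and stage, with each point 1 library and the dash and bar the mean ± SD of 2 libraries. The cytosolic genes lie between 0.437% and 0.516% at the 2-cell stage and between 2.49% and 3.16% later.

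Per length, members differed by orders of magnitude within a stage. In RPKM (CPM divided by the exon length in kilobases, where CPM is the count scaled to a common library size), the median member stood at 23.7 in control 2-cell, 129 in control 4-cell and 183 in control 8-cell embryos, and at 19.2, 130.1 and 167 in the MERVL-KD groups. Rplp1, a stalk protein, ranked highest in all 6 groups, with an RPKM of 269 ± 30.3 (SD, n = 2) in control 2-cell and 1952 ± 35.8 in control 8-cell embryos. Rpl41, one of the smallest ribosomal proteins, ranked next in every group, with a mean RPKM of 706 over the 12 libraries, followed over the 12 libraries by Rps23 at 479.9. Some 80 members reached an RPKM of 1 in control 2-cell and 81 in control 4-cell embryos. The lowest means over the 12 libraries were those of Rps10 (2.05), the muscle paralog Rpl3l (1.41) and the large subunit gene Rpl24 (0.707). Rpl24 held 14 to 47 counts per library, and 47.0% of its exon bases overlap the entry Gm28037 on the same strand. Rps10, a small subunit protein at the messenger RNA entry, has 20.6% of its exon bases under Gm49804. The lengths in the files cover all annotated exons of a gene, so a long rarely used exon lowers its RPKM.

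The reads were kept by the authors only where they aligned to a single place. Many ribosomal protein genes have processed copies in the genome, so exact copies of single windows of the messenger RNAs were sought. The reads were paired and aligned with mismatches allowed, so these windows do not measure which reads aligned to a single place. Of its windows of 150 bases, the median member had 75.5% with no exact copy outside its own gene, over the 80 members with a protein-coding transcript in GENCODE M21, an older release than the vM25 used for the counts. Rps4l, Rpl6l and Rpl32l had no such transcript under these symbols and 1 annotated exon each, so their uniqueness was not measured. All windows were unique in 11 members, fewer than 50% in 21 and fewer than 10% in 4. Rps27 had 0.510%, Rpl24 23.3%, Rpl3 23.5%, Rps27a 38.6%, Rpl7 85.1%, Rplp0 92.4% and Rps27l 100%. Across these 80 genes, which are not independent replicates, level and uniqueness were weakly related (Spearman's rho of −0.0739 with mean RPKM and of −0.217 with the control log2 change from the 2-cell to the 4-cell stage). The median RPKM was 138 in the 21 members under 50% unique, 125 in the 34 from 50% to under 90% and 95.3 in the 25 above, and the median log2 change 2.44, 2.42 and 2.18. Small nucleolar RNA genes lie inside 29 members on the same strand, 56 of them in all, and 27 of the 83 members share some exon bases with another entry of that strand. The median RPKM was 125 in members with such a gene inside and 103 in those with none.

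**Figure D2:**
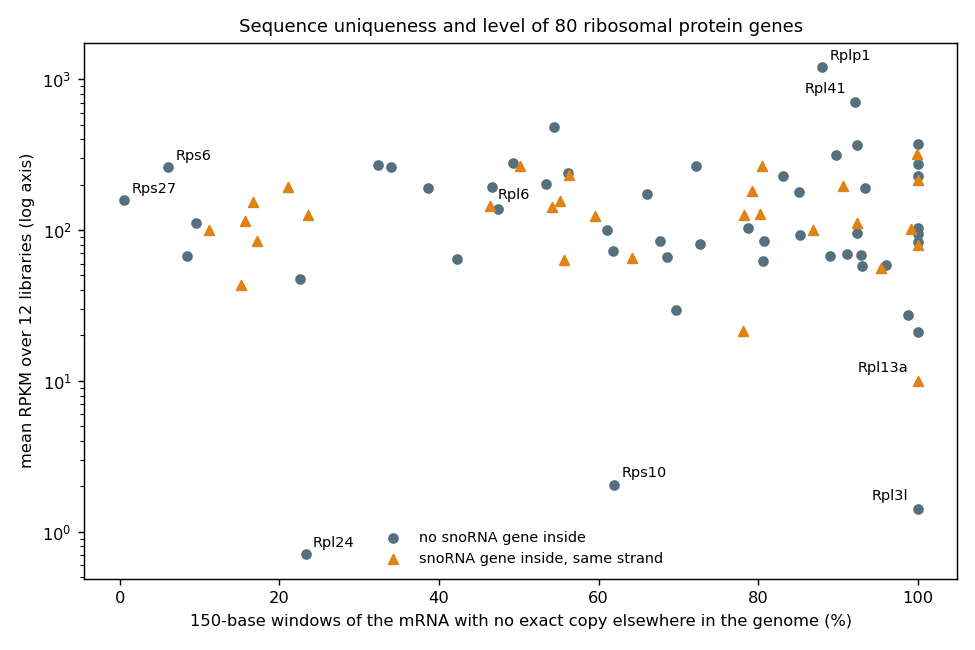
Mean RPKM over 12 libraries (vertical log axis) against the share of 150-base windows of the messenger RNA with no exact copy elsewhere in the genome (horizontal axis, %), for 80 members, with triangles for genes that hold a small nucleolar RNA gene. Rplp1 at the top and Rpl24 at the bottom mark the range of levels, and Rps27 has the least unique sequence.

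The first comparison asks how these genes change as control embryos pass from the 2-cell to the 4-cell stage. Nearly the whole family rose relative to the other counts of the libraries. At a Benjamini-Hochberg adjusted p under 0.05 in edgeR's quasi-likelihood test, 79 of 83 members were higher, against 26.4% of all genes tested. At least 2-fold higher were 77 members (20.7% of all). Shares and medians given for all or for everything tested cover gene entries alone, without the repeat families that the adjustment of p included. A single member, Rpl3l, was lower, against 28.7% of all, and by at least 2-fold, against 24.3%. The median log2 change of the members was 2.35, or 2.41 above the median of everything tested, and 79 members lay above that median. The distance to that median was 2.42 with library size alone, a scaling that moved the median of all from −0.06 to 0.10.

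Rpl7 and Rpl3, both large subunit proteins that bind ribosomal RNA early in assembly, rose most. Rpl7 stood at 46.2 and 43.8 CPM in the control 2-cell libraries, 638 and 614 in the 4-cell and 898 and 909.9 in the 8-cell libraries. Rpl3 stood at 43.6 and 41.1, then 595 and 556, then 837 and 781. For both genes all later libraries lay far above the 2-cell ones. Rpl7 was 13.9-fold higher at the 4-cell than at the 2-cell stage (log2 3.80, SE 0.0946, adjusted p = 3.1e-17) and Rpl3 13.6-fold (log2 3.76, SE 0.120, adjusted p = 6.5e-16). Rpl14, whose start is shown above, rose from 29.3 and 33.4 to 355 and 341 CPM, or 11.1-fold (adjusted p = 6.5e-16).

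All 4 genes of the P stalk, the flexible arm that recruits and activates translation factors, rose. They did so unequally. Rplp0, its base, stood at 330.2 and 387 CPM in control 2-cell and at 654 and 671 in control 4-cell libraries, 1.85-fold higher (log2 0.88, SE 0.0954, adjusted p = 6.1e-08), the only one of the 4 below 2-fold. Its partners Rplp1 and Rplp2 rose by 2.28 and 1.87 on the log2 scale, and Rpl12, which binds next to the stalk base, by 2.54. Per length Rplp0 already ranked 3 of the 83 members in control 2-cell embryos, at an RPKM of 216 ± 24.3 (SD, n = 2).

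All 5 genes of the set that forms the 5S particle or binds Mdm2 rose by at least 2-fold, with a median log2 change of 2.44. Rpl5, which carries 5S ribosomal RNA to the large subunit, rose by 3.24, its partner Rpl11 by 2.46 and Rpl23 by 1.63. All 8 genes of the exit tunnel rim, where new proteins leave the ribosome, rose by at least 2-fold, with a median of 2.47. Rpl38 rose by 3.33 and Rpl22 by 2.99, while Rpl39, which lines the tunnel, rose by 2.31. All 9 genes of messenger RNA entry, decoding and initiation also rose by at least 2-fold, with a median of 2.59. Rps3, at the entry channel, rose by 3.09 and Rps26, at the exit side, by 1.59.

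The 5 listed paralogs were mixed, with 2 higher (26.4% of all), 1 lower, 2 not called and a median log2 change of −0.09. The other 2 members whose symbol ends in l, Rpl6l and Rpl32l, rose by 1.86 and 2.59, and all 7 together had 4 higher, 1 lower and a median of 0.81. Rpl3l fell from 4.81 and 4.18 CPM to 0.681 and 1.98 (log2 −1.77, SE 0.480, adjusted p = 0.00353), on 151 and 152 counts at the 2-cell and 24 and 57 at the 4-cell stage. Without control 4-cell replicate 1 the fall was −1.19 and no longer called, with adjusted p from 0.00044 to 0.0743 over its alternatives. Rps27l stood at 61.7 and 61.0 in control 2-cell and at 50.6 and 57.5 in control 4-cell libraries (log2 −0.18, SE 0.118, adjusted p = 0.199). Rpl10l stood at 54.1 and 66.6, then 46.4 and 67.0, in groups that overlap (log2 −0.09, SE 0.215, adjusted p = 0.743). Per length these paralogs ranked 7 and 17 of 83 in control 2-cell embryos and 67 and 72 in control 4-cell embryos. Rps4l and Rpl39l rose, by 1.45 and 0.81 on the log2 scale. Rpl24 was the remaining member not called, at a log2 change of −0.19 with an SE of 0.649 and few counts.

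**Figure D3:**
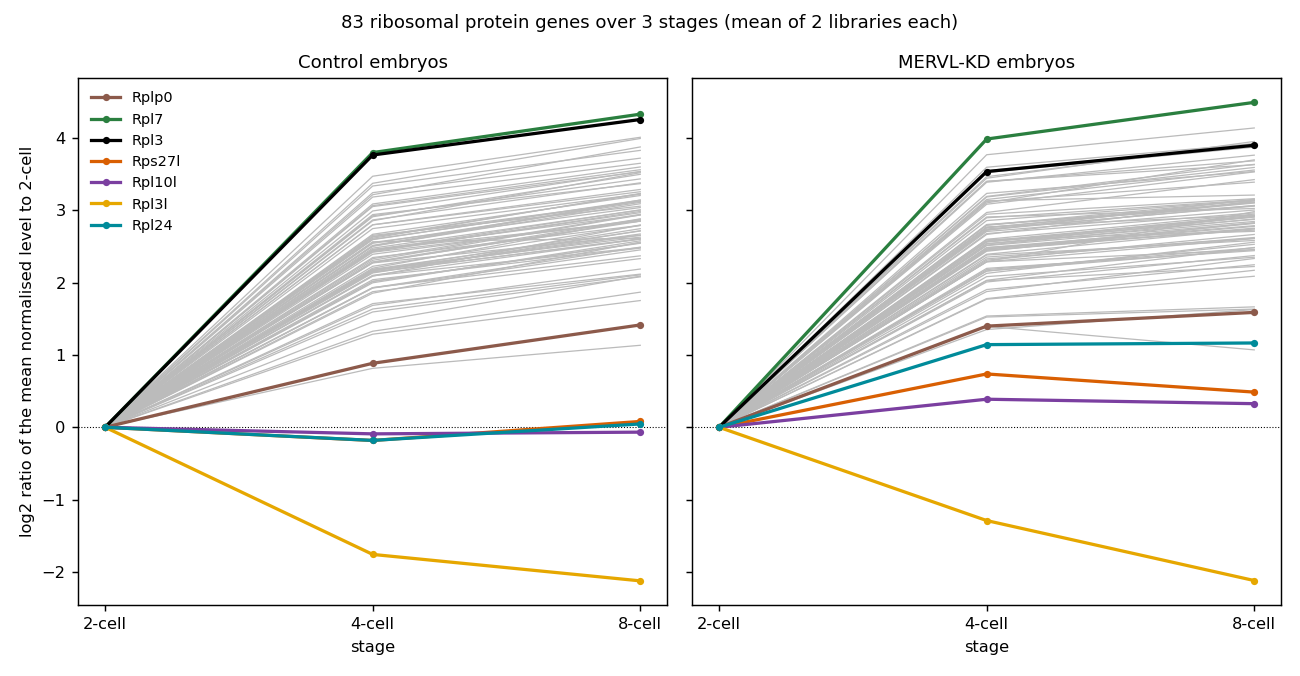
Log2 ratio of each member's mean normalised level (2 libraries) to its own 2-cell level (vertical axis) at 3 stages in control (left) and MERVL-KD embryos (right), with 7 genes in colour and the others in grey. Rpl7 rises most in both panels, Rpl3l falls, and Rps27l, Rpl10l and Rpl24 stay near the dotted line of no change in control embryos.

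From the 4-cell to the 8-cell stage, control embryos showed a smaller and more even rise. 73 of 83 members were higher, against 3.19% of everything tested, and 0 were lower by edgeR or at an unadjusted p under 0.05, or by DESeq2, against 2.68%. No member rose or fell by 2-fold by either tool, against 0.474% higher and 1.09% lower among all. The median log2 change was 0.51, or 0.52 above the median of everything tested. Library size alone moved the median of all by more than 0.1, to −0.21, where 40 members were called and their distance to it was again 0.52. The count was 39 without control 4-cell replicate 2 and 47 without control 8-cell replicate 2.

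Rps2, an entry channel protein, had the smallest adjusted p. It stood at 315 and 327 CPM in control 4-cell and 494 and 533 in control 8-cell libraries, with no overlap, 1.60-fold higher (log2 0.68, SE 0.0900, adjusted p = 0.000243). Rpl7a and Rpl7 followed, at log2 changes of 0.60 and 0.53 (adjusted p = 0.000499 and 0.00103). All 4 stalk genes, all 5 genes of the 5S and Mdm2 set, 7 of 8 rim genes and all 9 entry and decoding genes were called, with medians between 0.48 and 0.55. Of the paralogs Rps4l alone was called, at 0.63.

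MERVL-KD embryos passed through the same step from the 2-cell to the 4-cell stage, compared among themselves. 80 of 83 members were higher, against 27.1% of everything tested, 79 of them by at least 2-fold (21.2% of all). Rpl3l was again the single member called lower (log2 −1.29, SE 0.465, adjusted p = 0.0242), against 27.3% of all, and at least 2-fold lower, against 23%. That call was lost without MERVL-KD 2-cell replicate 1 (−1.0) and without MERVL-KD 4-cell replicate 2 (−0.93), with adjusted p from 0.0118 to 0.182 over its alternatives. The members' median was 2.56, or 2.62 above that of everything tested. Rpl7 went from 33.7 and 33.4 CPM to 542 and 521, or 15.8-fold higher (log2 3.98, SE 0.0955). Rps27a, which encodes a small subunit protein fused to ubiquitin, rose from 34.2 and 39.8 to 427 and 467, or 12.1-fold (log2 3.60, SE 0.110). Rps23, whose start is shown above, rose from 80.3 and 81.8 to 707 and 768, or 9.09-fold. Rps27l, with no call in control embryos, rose here by 0.74 (SE 0.118, adjusted p = 1.5e-05).

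From the 4-cell to the 8-cell stage 29 members were higher in MERVL-KD embryos, against 2.27% of everything tested, and 0 lower by edgeR or DESeq2, with 1 lower at an unadjusted p under 0.05, against 2.41%. None rose or fell by 2-fold by either tool (0.333% higher and 1.31% lower among all). The members' median was 0.32, or 0.35 above that of everything tested. Library size alone moved the median of all to −0.17 and left 3 members called at the same distance, 0.35. DESeq2 called 49 members, and 4 were called without MERVL-KD 4-cell replicate 1 or without MERVL-KD 8-cell replicate 2. Rpl7 (log2 0.51, adjusted p = 0.00144) and Rpl19, a tunnel rim protein (0.46, adjusted p = 0.00545), kept their call in all alternatives run. Rps23 (0.41, adjusted p = 0.0109) lost it without MERVL-KD 4-cell replicate 1 (0.35), with library size alone (0.27) and in a fit of the 4 libraries compared (0.40), with adjusted p from 0.00013 to 0.102 over its alternatives.

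The next comparisons set MERVL-KD against control embryos at each stage, and they use the 4 libraries of that stage. The paper reports that most MERVL-KD embryos were delayed in development and that embryos were collected by their visible cleavage stage. Both later stages carry the same day label, so their libraries may hold faster or slower embryos of each treatment. The part of delay and of this selection in the differences at the later stages and in the interactions was not tested. Few members changed at the 2-cell stage, and those that did were mostly lower. 1 member was higher, against 6.7% of everything tested, and 7 were lower, against 7.39%, so the counts are near or below what all genes show. None was higher or lower by 2-fold, by edgeR or DESeq2 (4.37% and 2.24% of all). A single fit of all 12 libraries gave 0 higher and 13 lower members, 1 of them by 2-fold, and a median of −0.17. At an unadjusted p under 0.05 there were 3 higher and 15 lower members. The direction of the family depends on the scaling, with a median log2 change of −0.09 here and 0.20 with library size alone, which moves the median of everything tested from 0.01 to 0.30 and calls 19 higher and 2 lower members. Relative to that median the members stood at −0.10 in both, with 27 above and 56 below. The lower count was 4 without control 2-cell replicate 2, the higher count 0 without control 2-cell replicate 1 or MERVL-KD 2-cell replicate 1, and 2 members were at least 2-fold lower without control 2-cell replicate 1 or MERVL-KD 2-cell replicate 2.

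Rps27a stood at 67.4 and 78.4 CPM in control and 34.2 and 39.8 in MERVL-KD 2-cell libraries, and Rpsa at 104 and 127 with control ASO, next to 45.5 and 69.7 in MERVL-KD. In both genes the MERVL-KD libraries lay below both control libraries. Rps27a was 1.86-fold lower (log2 −0.90, SE 0.117, adjusted p = 8.8e-05) and Rpsa 1.89-fold (log2 −0.92, SE 0.167, adjusted p = 0.00345), and both kept the call in all 13 alternatives. Rplp0 stood at 330.2 and 387 with control ASO, next to 246 and 262 in MERVL-KD libraries, again without overlap (log2 −0.41, SE 0.0883, adjusted p = 0.00507). That call was lost without control 2-cell replicate 2 (−0.32) and with library size alone (−0.12), with adjusted p from 0.00011 to 0.321 over its alternatives. Among the others, the decoding protein Rps23 and the large subunit proteins Rpl28 and Rpl27 were lower by −0.44, −0.50 and −0.47. Rps20, of the small subunit head, was the member called higher, at 45.7 and 57.2 with control ASO, next to 63.7 and 63.8 in MERVL-KD libraries (log2 0.39, SE 0.116, adjusted p = 0.0333). Its call was lost without control 2-cell replicate 1 (0.24), without MERVL-KD 2-cell replicate 1 (0.38) and in a single fit of all 12 libraries (0.31), with adjusted p from 0.00038 to 0.354 over its alternatives. By role, 3 of the 9 entry and decoding genes and 1 of the 4 stalk genes were lower, while 0 of the 5S and Mdm2 set, the tunnel rim and the paralogs were called by edgeR, where the rim alone had 1 member lower at an unadjusted p under 0.05.

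**Figure D4:**
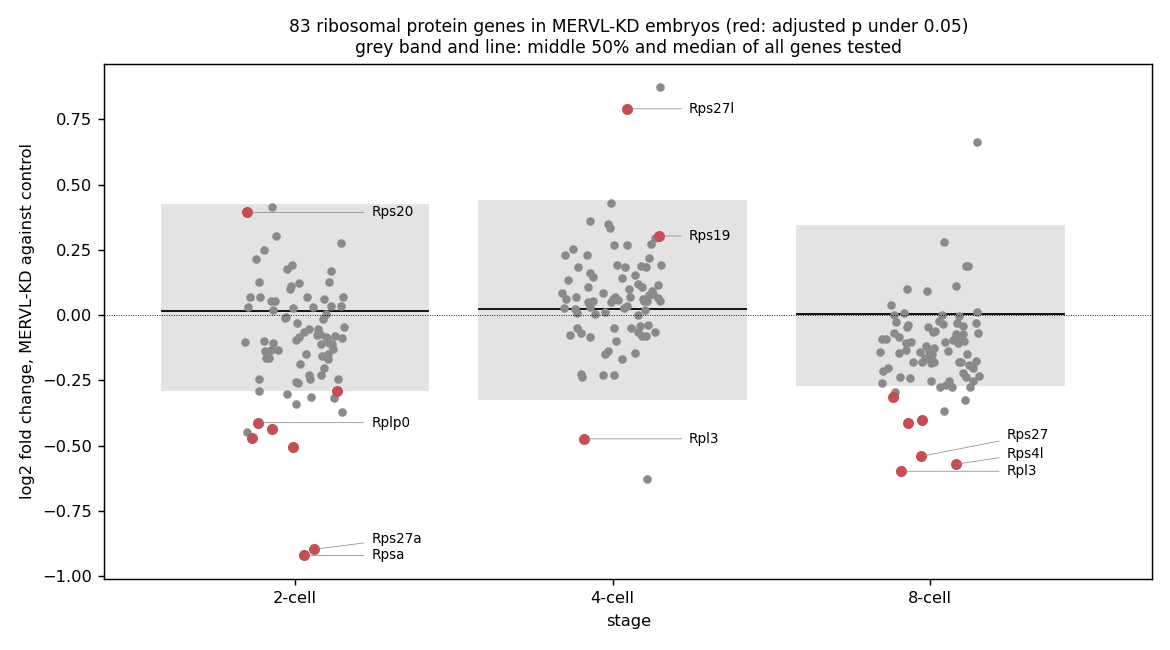
Log2 fold change of MERVL-KD against control embryos (vertical axis) for 83 members at each stage, with called members in red and the median and middle 50% of all genes tested as line and band. Most members lie inside the band, and Rps27a and Rpsa lie lowest at the 2-cell stage. Values are on the normalised scale, where the members' median at the 2-cell stage is −0.09. With library size alone that median is 0.20, while its distance to the median of everything tested is −0.10 in both.

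In 4-cell embryos the family lay close to the median of everything tested. 2 members were higher, against 4.92% of all, and 1 was lower, against 5.84%, with none changed by 2-fold by either tool (2.66% higher and 1.88% lower among all). The members' median was 0.06, or 0.04 above that of everything tested, with 54 above and 29 below, and 0.12 with library size alone, at a distance of 0.03. At an unadjusted p under 0.05 there were 11 higher and 3 lower members. The higher count was 6 with library size alone or without MERVL-KD 4-cell replicate 1, and 1 without either control 4-cell replicate. The lower count was 2 without MERVL-KD 4-cell replicate 2.

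Rps27l, a known target of p53, stood at 50.6 and 57.5 CPM in control and 85.9 and 100.3 in MERVL-KD 4-cell libraries, both above all control libraries of the 3 stages. It was 1.73-fold higher (log2 0.79, SE 0.121, adjusted p = 0.00177) and kept its call in all 12 alternatives. Its parent gene Rps27 stood at 224 and 206 with control ASO, next to 153 and 213 in MERVL-KD libraries, which overlap (log2 −0.23, adjusted p = 0.351). Rps19, a small subunit protein mutated in Diamond-Blackfan anaemia, stood at 307 and 324 with control ASO, next to 376 and 399 in MERVL-KD libraries (log2 0.30, SE 0.0871, adjusted p = 0.0468). That call was lost in 5 of 13 alternatives, among them without control 4-cell replicate 1 (0.26), control 4-cell replicate 2 (0.33) or MERVL-KD 4-cell replicate 2 (0.26), with adjusted p from 0.0218 to 0.333. Rpl3 stood at 595 and 556 with control ASO, next to 369.9 and 456 in MERVL-KD libraries, without overlap, 1.39-fold lower (log2 −0.47, SE 0.105, adjusted p = 0.0147), a call kept in all 13 alternatives.

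**Figure D5:**
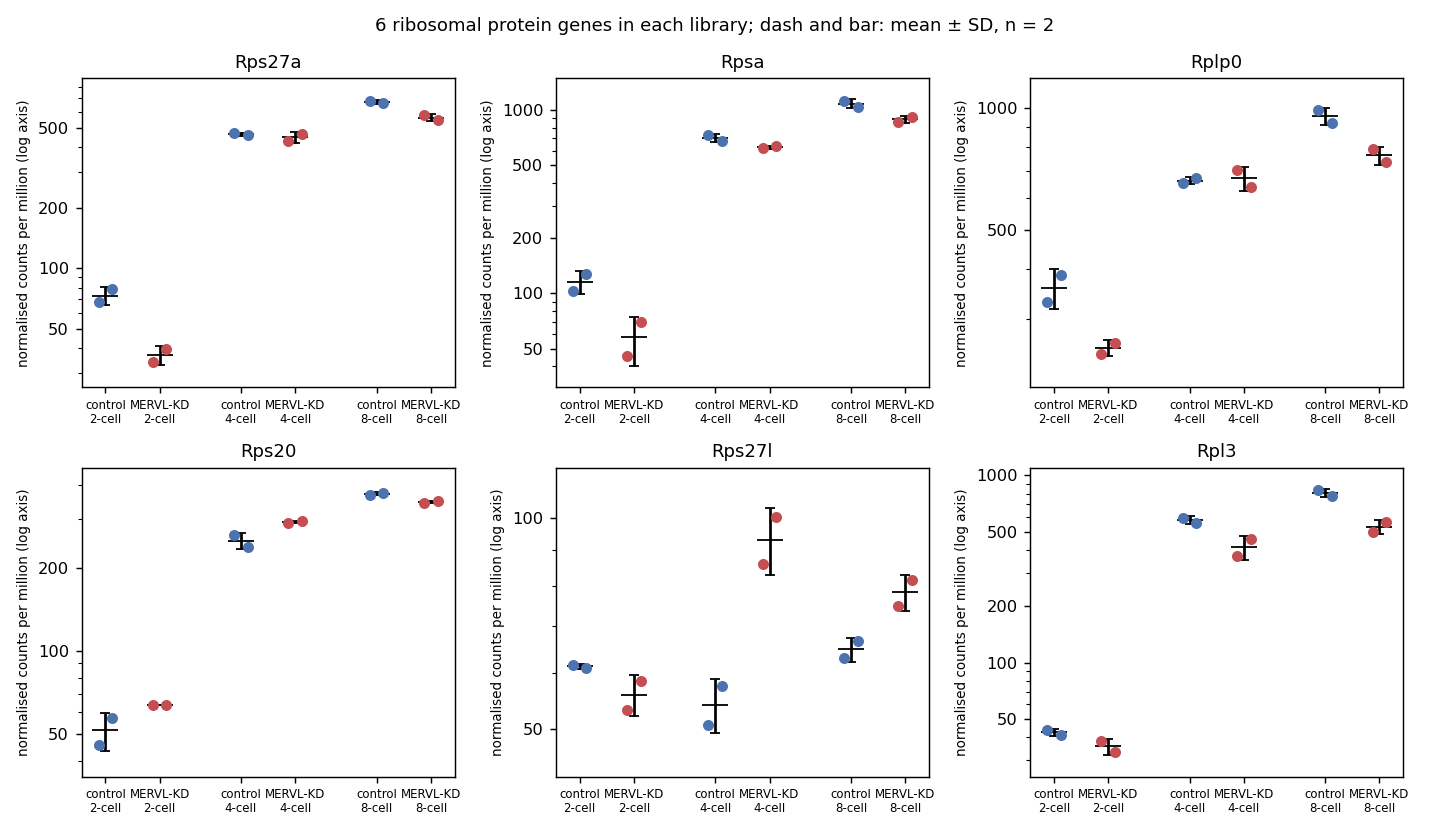
Normalised CPM (vertical log axis) of 6 members in each library, by treatment and stage, with each point 1 library and the dash and bar the mean ± SD of 2 libraries. Rps27a and Rpsa are lower in MERVL-KD 2-cell embryos, Rps27l is highest in MERVL-KD 4-cell embryos at 85.9 and 100.3, and Rpl3 is lower in MERVL-KD embryos at the 4-cell and 8-cell stages.

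At the 8-cell stage most members lay slightly below the median of everything tested. 6 members were lower, against 3.56% of all, and 0 were higher by edgeR or DESeq2, with 1 at an unadjusted p under 0.05, against 1.5%. None changed by 2-fold by either tool (0.641% higher and 1.06% lower among all), and 25 were lower at an unadjusted p under 0.05. The members' median was −0.14, and 73 of them lay below the median of everything tested and 10 above. With library size alone, which puts the median of all at 0.13, the members' median was −0.01 with 2 lower calls, at a distance of −0.14 in both. The lower count was 3 without control 8-cell replicate 1, 11 without MERVL-KD 8-cell replicate 1 and 24 without MERVL-KD 8-cell replicate 2, and 1 member was higher without MERVL-KD 8-cell replicate 1.

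Rpl3 stood at 837 and 781 CPM in control and 499 and 564 in MERVL-KD 8-cell libraries, 1.51-fold lower (log2 −0.60, SE 0.0840, adjusted p = 0.00173). Rps27 stood at 348 and 312 with control ASO, next to 238 and 213 in MERVL-KD libraries (log2 −0.54, SE 0.0931, adjusted p = 0.00694). Where on the gene its counts fall was not tested. In both genes the treatments did not overlap and the call was kept in all 13 alternatives. Rps4l stood at 89.1 and 82.6 with control ASO, next to 60.3 and 54.6 in MERVL-KD libraries (log2 −0.57, SE 0.110, adjusted p = 0.0125). Its call was lost without control 8-cell replicate 1 (−0.51) and with library size alone (−0.44), with adjusted p from 0.00014 to 0.0684 over its alternatives. Rps9, Rpl10a and Rplp0 were lower by −0.41, −0.40 and −0.31. Rplp0 stood at 990.5 and 922 with control ASO, next to 792 and 737 in MERVL-KD libraries. By role, 1 stalk gene and 1 paralog were lower, and 0 genes of the other sets were called by edgeR, where 5 of the 9 entry and decoding genes, 1 of the 5S and Mdm2 set and 0 of the rim were lower at an unadjusted p under 0.05.

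Whether the difference between MERVL-KD and control embryos changes with stage was tested as an interaction over the 12 libraries. From the 2-cell to the 4-cell stage it shifted upward in 8 members, against 2.51% of everything tested, and downward in 0 by edgeR or DESeq2, against 1.64%, with 27 up and 1 down at an unadjusted p under 0.05. The median shift was 0.22, but −0.09 with library size alone, which moves the median of all from 0.05 to −0.25 and calls 2 upward and 5 downward. Relative to the median of all it was 0.17 and 0.16, with 68 members above and 15 below. DESeq2 called 13 upward. The count was 3 without control 2-cell replicate 2, MERVL-KD 2-cell replicate 1 or either control 4-cell replicate, and 2 without MERVL-KD 4-cell replicate 2. The shifts come from the fit of 12 libraries and so differ slightly from the difference of the effects fitted within each stage. Rps27a had the largest shift among those called, with effects within the stage of −0.90 in 2-cell and −0.05 in 4-cell embryos (shift 0.93, SE 0.142, adjusted p = 0.000575). Rps27l had effects of −0.05 and 0.79 (shift 0.92, SE 0.166, adjusted p = 0.00245), and both calls were kept in all alternatives run. Rpsa shifted by 0.83 (adjusted p = 0.0384) and Rpl28 by 0.63 (adjusted p = 0.00792), a call lost without MERVL-KD 4-cell replicate 2 (0.51) and with library size alone (0.33). Rps23 (0.55, adjusted p = 0.0156) lost its call in 6 of 16 alternatives, with adjusted p up to 0.246, and Rplp0 (0.51, adjusted p = 0.0328) in 8 of 16, with adjusted p up to 0.413. The Rps23 call was lost with library size alone and without control 2-cell replicate 2 (0.44), MERVL-KD 2-cell replicate 1 (0.53), control 4-cell replicate 1 (0.54), control 4-cell replicate 2 (0.56) or MERVL-KD 4-cell replicate 2 (0.37). The Rplp0 call was lost with library size alone and without any single library of the 2 stages other than control 2-cell replicate 1, at 0.39 to 0.55. Rpsa, Rps18 and Rps19 also lost their call in these 6 settings of Rps23, where Rps27a, Rps27l and at most Rpl28 remained.

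From the 4-cell to the 8-cell stage 0 members shifted in either direction by edgeR, against 0.275% upward and 0.349% downward among all, with 0 up and 14 down at an unadjusted p under 0.05 and 1 downward by DESeq2. The median shift was −0.21, or −0.19 relative to the median of everything tested, with 76 members below it and 7 above. 1 member was called downward without MERVL-KD 4-cell replicate 1 or without MERVL-KD 8-cell replicate 2.

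Genes that work with the ribosomal proteins were read from lists beside them, in a step where 26.4% of everything tested rose and 28.7% fell. In control embryos all 15 elongation factor and other TOP genes rose from the 2-cell to the 4-cell stage (median log2 1.89), among them Eef1g by 4.22 and Rack1, which sits on the small subunit, by 4.03. Of the ribosomal protein genes outside the symbol rule, 6 of 8 rose, with Rps3a1 at 2.19 and Fau at 1.99. Of the mitochondrial ribosomal protein genes 61 of 76 tested rose and 3 fell (median 1.29). Of the regulators of TOP translation 11 of 19 rose and 4 fell, with the TOP-binding protein Larp1 at 2.42 and Max, the partner of Myc, at −2.09. Of the chaperones and assembly factors of ribosomal proteins 10 of 13 tested rose and 1 fell, and Tsr2, the chaperone of Rps26, rose by 4.82. Pseudogene entries held 2.57% to 3.11% of the summed counts of members and pseudogenes in every library.

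MERVL-KD and control embryos of the same stage were then compared over these lists, where the shares of everything tested were 6.7% higher and 7.39% lower in 2-cell, 4.92% and 5.84% in 4-cell, and 1.5% and 3.56% in 8-cell embryos. Of the TOP genes Nap1l1 was lower at the 2-cell stage (−0.30) and Eef1a1 higher at the 4-cell stage (0.40), while at the 8-cell stage 0 of 15 were called by edgeR, with 2 higher and 4 lower at an unadjusted p under 0.05. Of the 76 mitochondrial genes 3 were higher and 1 lower at the 2-cell, 1 and 4 at the 4-cell, and 0 and 4 at the 8-cell stage. Of the regulators 1 was higher and 4 lower at the 2-cell, 3 and 4 at the 4-cell, and 0 and 1 at the 8-cell stage, with Mycn at 3.02 and Larp1b at −0.76 in 2-cell embryos. Of the chaperones 2 were higher and 4 lower, then 0 and 2, then 0 and 1, where Pdcd2l, an assembly factor of the small subunit, was lower at −1.34, −0.54 and −0.77. Of the genes outside the symbol rule Fau was lower at the 8-cell stage (−0.31). In the p53 and Mdm2 loop, the targets Ccng1 and Cdkn1a were higher at the 2-cell (1.93 and 1.55) and the 4-cell stage (3.01 and 1.44). Mdm2 was higher (0.32) and Mdm4 (−0.65) and Trp53 (−0.61) lower at the 4-cell stage, and Ccng1 (1.89) and Mdm4 (−0.41) were called at the 8-cell stage. Their part in the level of Rps27l was not tested.

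Markers of other cells were low in CPM, though some held over 100 counts in a library. The 12 cumulus and granulosa cell markers summed to between 8.65 and 10.5 CPM in 2-cell and between 2.78 and 6.00 in later libraries. Col4a1 was the most abundant of them at the 2-cell stage, and Fshr, Inha and Ptx3 held 10 counts or fewer in all libraries. In 4-cell libraries the 12 markers summed to 2.81 and 2.78 in control and to 4.59 and 4.59 after MERVL-KD, which do not overlap. Of the 2 tested at that stage 0 were called. The 8 sperm markers summed to at most 2.14, with Prm2 the most abundant at the 2-cell stage, and Tnp1, Tnp2, Odf1, Smcp and Spata18 held 10 counts or fewer in all libraries. The 15 oocyte and early embryo markers, with Bmp15 the most abundant at the 2-cell stage, summed to 1603 and 1438 in control 2-cell and 935 and 1060.3 in MERVL-KD 2-cell libraries, which do not overlap. At that stage 5 of the 15 were lower (7.39% of all) and 0 higher (6.7% of all), with a median log2 change of −0.26, among them Zscan4c at −1.47 and Bmp15 at −0.81. They summed to between 462 and 470.1 in 4-cell libraries, though single genes moved. At that stage 2 of the 15 were higher (4.92% of all) and 1 lower (5.84% of all), each by at least 2-fold. The median log2 change was 0.29, with 10 genes above 0 and 5 below. In the interaction of the 4-cell with the 2-cell stage 3 were called upward and 0 downward, with a median shift of 0.68. In 8-cell libraries the 15 markers summed to 595 and 580.1 with control ASO, next to 471 and 469 after MERVL-KD, which do not overlap. That difference lies mostly in Pou5f1 and Tfap2c, while the list had a median log2 change of −0.05, with 7 genes above 0, 8 below and Pou5f1 alone called lower. The part of these lists in the ribosomal protein results was not tested.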

How the data were processed

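The authors aligned reads with STAR 2.5.3a to GRCm38, kept unique alignments and deposited raw counts from featureCounts per GENCODE vM25 gene and RepeatMasker family, without normalization. Counts from 1 to 50 are mostly even (71.8% to 74.7%), the reason for which is not stated, so counts halved were an alternative. Members, lists and tests were chosen with earlier results of these data known. edgeR 4.0.16 in R 4.3.3 (filterByExpr, TMM, robust quasi-likelihood test, Benjamini-Hochberg over all genes and repeat families tested) compared treatments within each stage, and stages and interactions in one fit of 12 libraries, which also gave the levels. All 83 members passed the filter in every fit. The named members had the 3 smallest adjusted p per direction, the 3 highest or lowest RPKM, a role in a list, or an interaction call. Other named members and listed genes were chosen after their values were seen. Alternatives were DESeq2 1.42.0, its size factors, library size alone, at least 1 count, a replicate block, each library left out, counts halved, repeats left out, symbols ending in l left out, and other sets of libraries in the fit. Sequences came from RefSeq and the genome, and uniqueness from GENCODE M21 transcripts, an older release than the counts. ATAC-seq and MERVLi libraries were not used here.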

Additional observations from a re-analysis of the deposited data

Results flagged for a closer look

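In 8 members the difference between treatments changed from the 2-cell to the 4-cell stage in the interaction test of edgeR (adjusted p under 0.05). All 8 shifted toward higher at the 4-cell stage, where 2.51% of everything tested shifted upward and 1.64% downward. With library size alone 2 members were called upward and 5 downward. On the normalised log2 scale the differences of the 8 members were 0.93 for Rps27a, 0.92 for Rps27l, 0.83 for Rpsa and 0.63 for Rpl28. They were 0.56 for Rps18, 0.55 for Rps23, 0.51 for Rplp0 and 0.47 for Rps19. In Rps27a, Rpsa, Rpl28, Rps23 and Rplp0 the lower level of 2-cell embryos was the called effect, and in Rps27l and Rps19 the higher level of 4-cell embryos, while Rps18 was called at neither stage. The calls of Rps27a and Rps27l were kept in all alternatives run, those of Rpl28, Rps23 and Rplp0 were lost in 2, 6 and 8 of 16, and those of Rpsa, Rps18 and Rps19 were lost in at least the same 6 as Rps23.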

How the results depend on the processing

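Of 387 values of named members under the alternatives 353 kept their call and direction, 34 lost the call and 0 reversed. This tally leaves out the interaction calls of Rpsa, Rps18 and Rps19, which were lost in at least the same 6 alternatives as that of Rps23. Of 428 counts 374 stayed within 1.5 times. With library size alone the members' median turned to 0.20 for MERVL-KD at the 2-cell stage and to −0.0897 for the interaction of the 4-cell with the 2-cell stage; the median of all genes moved with it. That scaling called 19 higher and 2 lower members at the 2-cell stage, 6 higher at the 4-cell stage, 2 lower at the 8-cell stage, 40 higher from 4-cell to 8-cell in control and 3 in MERVL-KD embryos, and 2 upward and 5 downward interactions. It also moved medians to 0.12 and −0.01 (MERVL-KD at 4-cell and 8-cell), 2.52 and 0.31 (control 4-cell and 8-cell steps), 2.42 and 0.18 (the MERVL-KD steps). One fit of all 12 libraries gave 0 higher, 13 lower, 1 of them 2-fold, and a median of −0.17 for MERVL-KD at the 2-cell stage. For the 2 higher members at the 4-cell stage, DESeq2 size factors gave 1, at least 1 count 4, counts halved 5, symbols ending in l left out 1, and the replicate block, which treats equal replicate numbers as paired, 1. Leaving out those symbols removed Rpl3l, which left 0 lower members in both steps to the 4-cell stage and a control median of 2.42. DESeq2 called 49 members in the MERVL-KD 8-cell step, 13 upward in the first interaction and 1 downward in the second. Fits of only the 4 libraries compared gave 3 in the MERVL-KD 8-cell step and a median of 2.43 in the control 4-cell step. Apart from the family's calls that follow the shift of all genes, the cause was not tested.

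With one library left out, its group keeps a single library assumed to vary like the others. The counts then ranged, for MERVL-KD, from 0 to 1 higher, 4 to 10 lower and 0 to 2 lower by 2-fold at the 2-cell, 1 to 6 higher and 1 to 2 lower at the 4-cell, and 0 to 1 higher and 3 to 24 lower at the 8-cell stage. They ranged from 0 to 1 lower (also by 2-fold) in both 4-cell steps, 39 to 59 and 4 to 30 higher in the control and MERVL-KD 8-cell steps, 2 to 10 upward in the first interaction and 0 to 1 downward in the second. Medians for MERVL-KD ranged from −0.16 to −0.03 at the 2-cell, 0.03 to 0.09 at the 4-cell and −0.19 to −0.08 at the 8-cell stage, and otherwise 2.21 to 2.47 and 2.42 to 2.62 in the 4-cell steps, 0.04 to 0.34 in the first and −0.25 to −0.10 in the second interaction. Pooled embryos, their choice by visible stage, 2 replicates and unique alignments limit all values.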
